A study of Mus musculus with 6 samples.

Results

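The mechanical stress response genes of muscle described here were chosen by gene symbol and comprised the muscle ankyrin repeat genes *Ankrd1*, *Ankrd2* and *Ankrd23*, the LIM domain genes *Csrp3* and *Fhl1*, the Xin repeat genes *Xirp1* and *Xirp2*, the nebulin-related anchoring gene *Nrap*, and *Actc1*, the cardiac alpha-actin. These 9 symbols matched 10 of the 37979 gene entries, because *Nrap* stood under 2 identifiers. Gene expression was measured by RNA-seq in gastrocnemius (GAS) muscles of 3 wild-type (WT) and 3 Kvβ2 KO mice, with 1 library per mouse. All were untreated males of 20 weeks, and the KO mice lacked the potassium channel auxiliary subunit Kvβ2, encoded by *Kcnab2*, in every tissue. Both genotypes came from the breeding of heterozygous parents, and the libraries carried the numbers 1, 7 and 8 within each genotype. The levels are FPKM, fragments scaled to transcript length and to the mapped fragments of a library. The labels name no loading or exercise of the muscles.

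Striated muscle senses tension at the Z-disc, where thin filaments are anchored, and along titin, the elastic protein that spans the sarcomere from Z-disc to M-line. The muscle ankyrin repeat proteins bind the spring region of titin and also enter the nucleus, and muscle LIM protein, encoded by *Csrp3*, binds the titin cap protein at the Z-disc. Transcripts of these genes are known to rise in muscle after stretch, eccentric contraction, overload or denervation, and mutations in *CSRP3* and *FHL1* cause human myopathies. *Ankrd2* and *Csrp3* are also known to be more abundant in slow than in fast fibres.

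None of the 10 entries passed the test between genotypes, which was limma on log2(FPKM + 0.1) with Benjamini-Hochberg adjustment over 12334 genes. All 10 exceeded the minimum of 0.5 FPKM on average. Mean expression was higher in the KO for 9 of 10 entries, with *Xirp2* the exception, and the median log2 fold change over the entries was 0.77, against 0.01 over all tested genes. The background was low, since 0.251% of tested genes were called higher in the KO and 0.073% lower at an adjusted p under 0.05. At an unadjusted p under 0.05, 4 entries were higher in the KO (*Ankrd1*, *Ankrd23*, *Xirp1* and the second *Nrap* entry), while 15.3% of all tested genes were, and 0 entries were lower, against a background of 10.9%. The lowest KO library exceeded the highest WT library for 2 entries, *Ankrd1* and *Ankrd23*, where the background was 18.3%. The reverse order held for 0 entries and for 16.2% of tested genes.

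**Figure D1:**
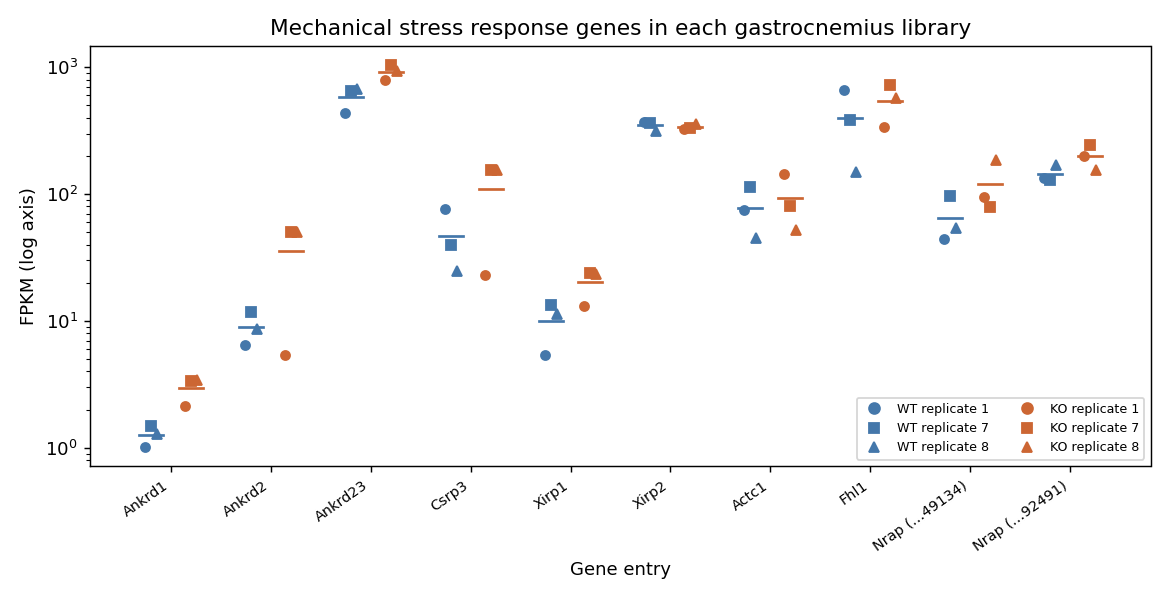
FPKM (log axis) of the 10 entries in the 6 GAS libraries, WT in blue and KO in orange, with one symbol shape per library number and a short line at each genotype's mean. The genotypes are separate for *Ankrd1* and *Ankrd23*, whereas KO replicate 1 lies below every WT library for *Ankrd2* and *Csrp3*.

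The libraries differed in ways that touched these genes. Estimated from the steps of low FPKM values, depth was 14910000 to 19340000 fragments in the KO and 20030000 to 21170000 in the WT. *Kcnab2* was at 0.233, 0.10001 and 0.110 FPKM in WT muscles, against 0, 0.0151 and 0 FPKM in KO muscles, so every KO library lay below every WT library, at levels of few fragments. Fold changes rose with the GC content of the transcript (Spearman's rho was 0.70 over the tested genes, and genes are no independent replicates). The median log2 fold change was -0.32 for genes under 44% GC and 0.68 for genes of at least 60% GC. Summed over 10 skeletal muscle markers, the level was 15153 to 23501 FPKM in the WT and 29086 to 31674 FPKM in the KO, and 0 of these markers were called. *Acta1* and *Ckm* made up most of this sum. Of the 10 markers, 9 had positive log2 fold changes, with a median of 0.44. At an unadjusted p under 0.05 in limma, 4 were higher and 0 lower in the KO, beside 15.3% and 10.9% of all tested genes. The log2 fold changes nearest 0, named after their values were seen, were -0.00102 for *Pygm* and 0.03 each for *Cacna1s* and *Myf6*. Summed adipocyte markers were at 7.35 to 34.8 FPKM in the WT and 44.3 to 168 FPKM in the KO, with 0 of 5 called. The part of GC content, of muscle content and of fat in the results below was not tested beyond the GC-corrected values given.

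Promoter windows of the ankyrin repeat genes and of *Actc1* are shown because tension-responsive transcription in muscle is known to run through the TEAD factors, which bind the MCAT element, and through SRF, which binds the CArG box. Each window holds 250 bases before and 50 after a transcription start of RefSeq on GRCm38.p6, read from 5′ to 3′ on the gene's strand. RefSeq windows were matched for 8 of the 9 symbols, and 1 window is printed for each of 4 genes. Capitals mark MCAT elements (CATTCC on either strand), TATA boxes (TATAAA on either strand) and CArG boxes, and E-boxes (CANNTG), which 72.3% of all windows held, are left in lower case.
Ankrd1 (chr19:36119795-36120094, minus strand): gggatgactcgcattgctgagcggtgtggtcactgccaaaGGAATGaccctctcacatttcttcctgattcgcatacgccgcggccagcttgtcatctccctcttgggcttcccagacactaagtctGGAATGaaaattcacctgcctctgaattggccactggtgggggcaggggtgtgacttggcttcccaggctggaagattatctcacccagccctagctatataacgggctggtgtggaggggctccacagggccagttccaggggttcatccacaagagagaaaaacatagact
Ankrd2 (chr19:42035777-42036076, plus strand): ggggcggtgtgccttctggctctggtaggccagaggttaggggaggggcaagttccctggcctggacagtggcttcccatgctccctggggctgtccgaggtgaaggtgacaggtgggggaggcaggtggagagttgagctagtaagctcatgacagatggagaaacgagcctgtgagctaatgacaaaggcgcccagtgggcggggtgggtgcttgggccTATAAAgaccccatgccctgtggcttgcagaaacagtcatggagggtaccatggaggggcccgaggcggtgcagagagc
Ankrd23 (chr1:36535690-36535989, minus strand): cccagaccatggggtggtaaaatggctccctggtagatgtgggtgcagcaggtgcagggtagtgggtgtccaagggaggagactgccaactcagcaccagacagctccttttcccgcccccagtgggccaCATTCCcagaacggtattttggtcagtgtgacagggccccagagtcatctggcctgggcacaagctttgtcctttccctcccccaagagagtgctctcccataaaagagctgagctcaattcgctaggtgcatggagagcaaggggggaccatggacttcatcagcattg
Actc1 (chr2:114052826-114053125, minus strand): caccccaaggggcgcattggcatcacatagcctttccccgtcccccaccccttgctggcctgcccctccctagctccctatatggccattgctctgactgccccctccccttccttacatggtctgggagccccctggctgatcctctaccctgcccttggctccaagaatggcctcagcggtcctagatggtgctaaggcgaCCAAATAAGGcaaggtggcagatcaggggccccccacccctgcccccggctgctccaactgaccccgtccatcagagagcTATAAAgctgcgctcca
*Ankrd1* held MCAT elements starting at positions -210 and -123 from the start site, and *Ankrd23* held one at -120 in the window printed. Another *Ankrd23* window, which is not printed, held one at 36, after its start site. *Ankrd2* held no MCAT element in its window and a TATA box at -29. *Actc1* held a CArG box at -47. Across 32851 windows, 14.7% held an MCAT element, 13.6% a TATA box and 1.63% a CArG box. The 8 matched symbols had 11 windows. An MCAT element was in 3 of these (*Ankrd1* and *Ankrd23*), a TATAAA match in 3 (*Ankrd2*, *Actc1* and *Fhl1*) and a CArG box in 2 (*Actc1* and *Fhl1*). The TATAAA match of *Actc1* lay after the start site, at 33, and that of *Fhl1* was on the opposite strand, at -156. A MEF2 site, found in 3.19% of all windows, occurred in that of *Xirp2*. These matches are letters in a window and no binding was measured.

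*Ankrd1* encodes CARP, a titin-binding cofactor that shuttles to the nucleus and is scarce in resting limb muscle. The gene (ENSMUSG00000024803) lies at chr19:36111961-36120099 on the minus strand of GRCm38. Levels were 1.02, 1.48 and 1.29 FPKM in WT libraries 1, 7 and 8, compared with 2.12, 3.39 and 3.43 FPKM in KO libraries 1, 7 and 8. Every KO library was thus above every WT library, although this was the lowest level among the 10 entries. The mean was 1.26 ± 0.232 FPKM (SD, n = 3) in the WT and 2.98 ± 0.747 FPKM (n = 3) in the KO. A log2 fold change of 1.16 (SE 0.24, 95% interval 0.60 to 1.71) missed the threshold in limma (adjusted p = 0.0708). Transcripts of *Ankrd1* hold 47.1% GC, and after correction for GC content the log2 fold change was 1.25 (limma adjusted p = 0.260).

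*Ankrd23* encodes DARP, a diabetes-related ankyrin repeat protein of the same titin-binding family, and was the most abundant member per length. The gene (ENSMUSG00000067653) lies at chr1:36530188-36536883 on the minus strand. WT replicates 1, 7 and 8 were at 432, 654 and 678 FPKM, and the KO replicates at 800, 1043 and 930 FPKM. Again the KO range began above the WT range, and WT replicate 1 was the lowest of the 6. The mean was 588 ± 135 FPKM in the WT and 924 ± 122 FPKM in the KO (SD, n = 3 each), and the log2 fold change of 0.67 (SE 0.20) did not pass in limma (adjusted p = 0.103). Without WT replicate 1 it was 0.46. At 56.4% GC, *Ankrd23* belongs to the genes whose fold changes are high as a class, and its GC-corrected log2 fold change was 0.26 (95% interval -0.07 to 0.59).

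*Ankrd2* encodes the ankyrin repeat protein typical of slow fibres, and it separated the KO mice from each other more than it separated the genotypes. The gene (ENSMUSG00000025172) lies at chr19:42036000-42045110 on the plus strand. Its transcripts reached 6.50, 11.7 and 8.70 FPKM in the WT (libraries 1, 7 and 8 in turn) and 5.44, 50.2 and 50.3 FPKM in the KO. KO replicate 1 was the lowest of all 6 libraries and the other two KO libraries were the highest. The levels spanned 9.26-fold within the KO and 1.80-fold within the WT. For the genotype contrast, the log2 fold change was 1.45 (SE 0.80, limma adjusted p = 0.285), and without KO replicate 1 it was 2.51, which passed (limma adjusted p = 0.0309). Without KO replicate 7 or KO replicate 8 it was 0.92 in each case (limma adjusted p = 0.592 and 0.555), and after GC correction it was 0.95. The pooled SD within genotypes was 1.33 on the log2 scale, at the 98.0th percentile of all tested genes.

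**Figure D2:**
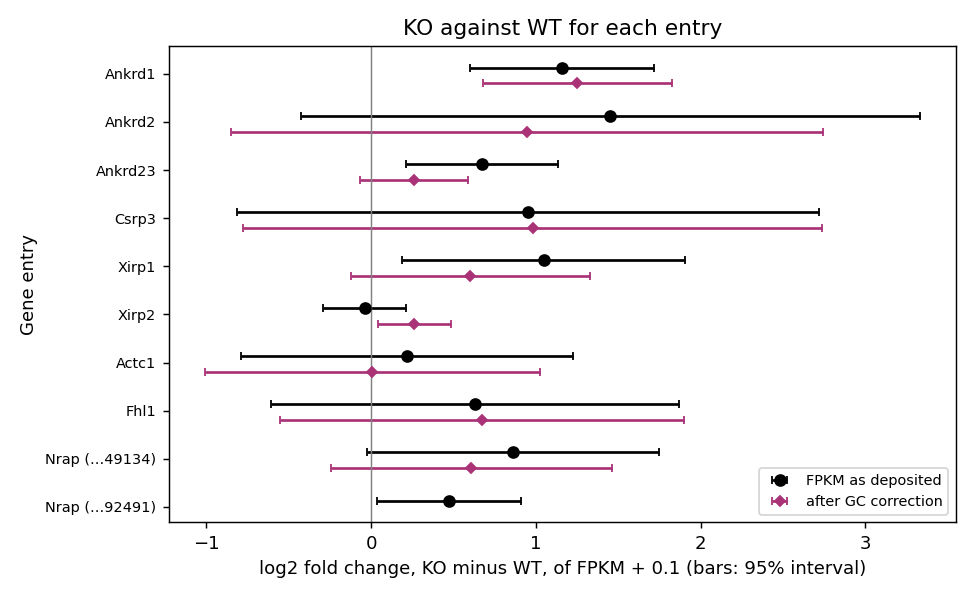
Log2 fold change of FPKM + 0.1, KO minus WT, for each entry (points) with its 95% interval (bars), as deposited in black and after GC correction in purple. Intervals exclude 0 for *Ankrd1* before and after the correction, for *Ankrd23* and *Xirp1* before it alone, and for *Xirp2* after it alone. The interval of the second *Nrap* entry also excludes 0, and this entry has no GC value.

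*Csrp3* encodes muscle LIM protein, a Z-disc scaffold and partner of the titin cap. The gene (ENSMUSG00000030470) lies at chr7:48830398-48848033 on the minus strand. WT libraries 1, 7 and 8 gave 76.8, 39.6 and 24.9 FPKM, against 23.2, 153.9 and 154.3 FPKM in the KO libraries of the same numbers. As with *Ankrd2*, KO replicate 1 was lowest and the other KO libraries were highest, and WT replicate 1 stood above the other WT libraries. The mean was 47.1 ± 26.8 FPKM in the WT and 110.5 ± 75.6 FPKM in the KO (SD, n = 3 each). The log2 fold change was 0.95 (SE 0.76, 95% interval -0.81 to 2.72, limma adjusted p = 0.445). Leaving out KO replicate 1 raised it to 1.86, still short of the threshold (limma adjusted p = 0.0963), and leaving out KO replicate 8 lowered it to 0.50. The GC-corrected value was 0.98.

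*Fhl1* encodes a LIM-only protein of the sarcomere that binds titin. The gene (ENSMUSG00000023092) lies at chrX:56731787-56793346 on the plus strand. Levels were 666, 385 and 148 FPKM in WT libraries 1, 7 and 8, compared with 340, 727 and 570.4 FPKM in KO libraries 1, 7 and 8. The WT libraries alone spanned the range from the lowest to the second highest level. Between genotypes the log2 fold change was 0.63 (SE 0.53, limma adjusted p = 0.469), and 0.67 with GC correction. Leaving out WT replicate 8 lowered the uncorrected value to 0.04, while leaving out WT replicate 1 raised it to 1.12.

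The order of the libraries for *Csrp3* and *Fhl1* was close to that of the slow fibre genes. Summed over 12 entries of slow fibre markers, WT libraries 1, 7 and 8 came to 1118, 771 and 66.4 FPKM, against 418, 1312 and 2170 FPKM in KO libraries 1, 7 and 8. The lowest and the highest library differed 32.7-fold, and within the WT alone the range was 16.8-fold. *Myh7*, the slow myosin heavy chain, came to 24.3, 22.1 and 0.0513 FPKM in the WT against 15.2, 50.5 and 77.4 FPKM in the KO. Of the 11 tested entries of the list, 11 had higher means in the KO, with a median log2 fold change of 1.39, but 0 were called. At an unadjusted p under 0.05 in limma, 0 were higher and 0 lower, beside 15.3% and 10.9% of all tested genes. *Csrp3* ranked the 6 libraries as this sum did, except that KO replicate 1 and WT replicate 8 changed places. *Fhl1* shared its 3 lowest libraries, in the same order, and *Ankrd2* shared only its 2 highest. The part of the slow fibre content of each sample in these values was not tested. In bulk muscle, fewer fibres of a type and less RNA per fibre cannot be told apart.

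**Figure D3:**
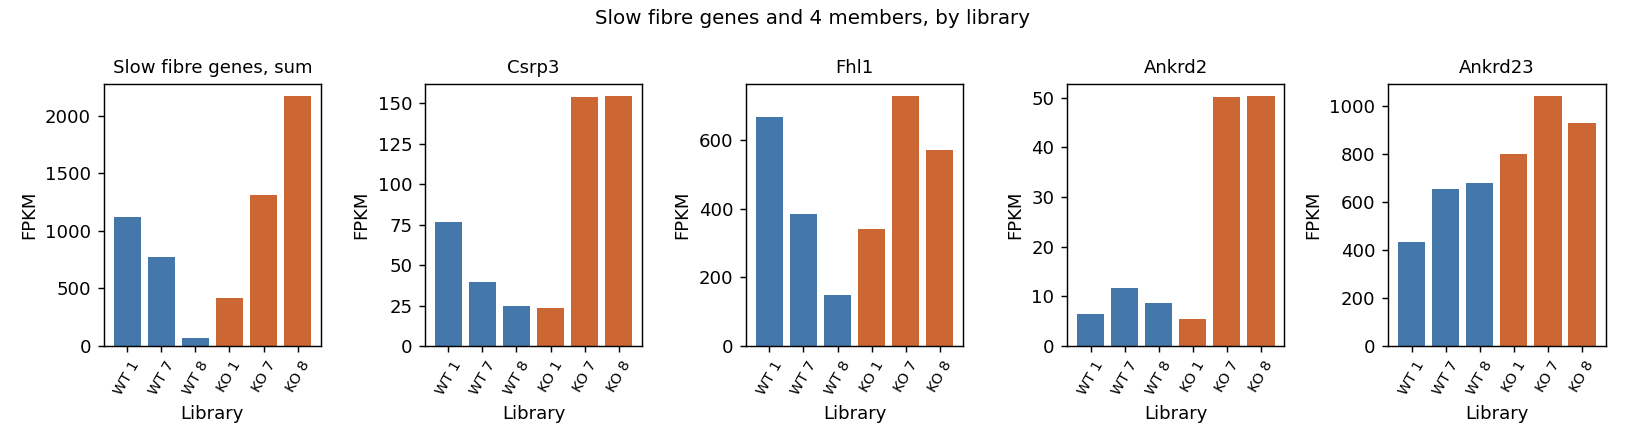
FPKM by library (bars from 0, WT in blue, KO in orange) for the sum of slow fibre genes and for *Csrp3*, *Fhl1*, *Ankrd2* and *Ankrd23*. WT replicate 8 (66.4 FPKM) and KO replicate 1 (418 FPKM) are the lowest libraries of the slow fibre sum and of *Csrp3* and *Fhl1*, while *Ankrd23* is separated by genotype.

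*Xirp1* encodes Xin, an actin-binding protein of attachment sites that marks regenerating and remodelling fibres. The gene (ENSMUSG00000079243) lies at chr9:120013755-120023598 on the minus strand. Its transcripts reached 5.42, 13.3 and 11.3 FPKM in the WT (libraries 1, 7 and 8 in turn) and 13.1, 23.9 and 23.4 FPKM in the KO. KO replicate 1 lay within the WT range, just below WT replicate 7, and the other KO libraries were above it. Its log2 fold change was 1.05 (SE 0.37, 95% interval 0.19 to 1.91, limma adjusted p = 0.140). With transcripts of 56.8% GC, the value after GC correction was 0.60, and without WT replicate 1 it was 0.66.

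*Xirp2*, the myomaxin gene and target of MEF2A, had the steadiest level of the members. The gene (ENSMUSG00000027022) lies at chr2:67446002-67526614 on the plus strand. WT libraries 1, 7 and 8 gave 369.7, 364 and 317 FPKM, the KO libraries 329, 335 and 358 FPKM, so the genotypes overlapped throughout. The log2 fold change was -0.04 (95% interval -0.29 to 0.21, limma adjusted p = 0.842; 0.000998 without WT replicate 1), and the pooled SD within genotypes was 0.097, at the 9.0th percentile of tested genes. *Xirp2* has 42.2% GC, the lowest of the members, and after GC correction the log2 fold change was 0.26 (limma adjusted p = 0.411).

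*Nrap* encodes a nebulin-related protein that anchors terminal actin filaments at myotendinous junctions and assists the assembly of myofibrils. Its first entry (ENSMUSG00000049134) lies at chr19:56320035-56390037 on the minus strand and overlaps the antisense gene *Gm17197*. This entry reached 44.5, 96.7 and 54.5 FPKM in WT libraries 1, 7 and 8, against 94.9, 79.7 and 187 FPKM in the KO libraries. Its second entry (ENSMUSG00000092491), which is absent from the annotation used here for positions, gave 133, 128 and 168 FPKM in the WT against 201, 246 and 156 FPKM in the KO. Both entries overlapped between genotypes, and KO library 8, the highest for the first entry, was the lowest KO library for the second. The log2 fold changes were 0.86 (SE 0.38, limma adjusted p = 0.198) and 0.47 (SE 0.19, limma adjusted p = 0.170). With 1 library left out, the first ranged from 0.49 (without KO replicate 8) to 1.19 (without WT replicate 7) and the second from 0.31 (without KO replicate 7) to 0.64 (without KO replicate 8). After GC correction the first was 0.61.

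The 2 entries share a symbol and may share fragments, so their sum was added after the values were seen. The sum came to 178, 225 and 223 FPKM in WT libraries 1, 7 and 8, against 296, 325 and 343 FPKM in the KO. On the sum, every KO library lay above every WT library, an order that 18.3% of all tested genes showed. No GC-corrected value is given for the sum, because the second entry has no GC value. The mean was 209 ± 26.6 FPKM in the WT and 321 ± 23.7 FPKM in the KO (SD, n = 3 each), and the log2 fold change was 0.63 (SE 0.13, limma adjusted p = 0.0705).

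**Figure D4:**
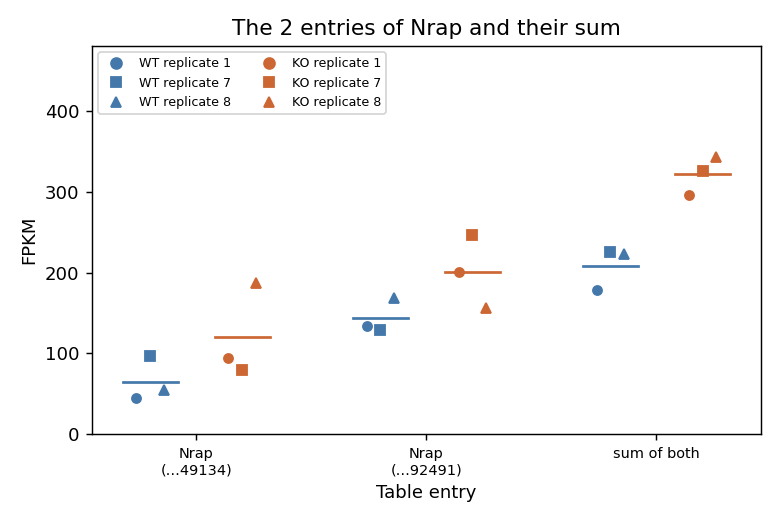
FPKM of the 2 *Nrap* entries and of their sum in each library, WT in blue and KO in orange, with lines at the means. The entries overlap between genotypes, and the sums are 178 to 225 FPKM in the WT and 296 to 343 FPKM in the KO.

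*Actc1* is the alpha-actin of the heart and of developing skeletal muscle, and the adult muscle fibre uses *Acta1* in its place. The gene (ENSMUSG00000068614) lies at chr2:114047282-114053548 on the minus strand. WT libraries 1, 7 and 8 gave 75.6, 113 and 45.3 FPKM, against 145, 80.6 and 51.9 FPKM in the KO libraries of the same numbers. The genotypes overlapped, and the library numbered 8 was the lowest in both. The log2 fold change was 0.22 (SE 0.43, 95% interval -0.79 to 1.22, limma adjusted p = 0.774). It turned to -0.17 without KO replicate 1 and to -0.12 without WT replicate 8, and the GC-corrected value was 0.0069. *Acta1*, whose coding sequence is nearly identical, came to 5029, 8435 and 9656 FPKM in the WT against 12045, 13917 and 13703 FPKM in the KO (log2 fold change 0.83, limma adjusted p = 0.104, and 0.34 after GC correction). *Actc1* amounted to 0.469% to 1.50% of *Acta1* in the WT and 0.379% to 1.21% in the KO, and misassigned *Acta1* fragments could contribute to its level. How the authors' quantification divided shared fragments was not tested, and the value is uncertain for that reason.

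Ordered by mean WT level per length, the members ran from *Ankrd23* (588 FPKM) through *Fhl1* (399.9), *Xirp2* (350.4), the second *Nrap* entry (143), *Actc1* (77.9), the first *Nrap* entry (65.3), *Csrp3* (47.1), *Xirp1* (10.01) and *Ankrd2* (8.97) to *Ankrd1* (1.26 FPKM). Neighbours overlapped over the WT libraries from *Ankrd23* to *Fhl1* and *Xirp2*, from *Actc1* to the first *Nrap* entry and *Csrp3*, and between *Xirp1* and *Ankrd2*. *Ankrd23* ranked 46th among all tested genes. As a group the members were more variable between mice of one genotype than most genes. Their median pooled SD was 0.60 on the log2 scale, against 0.22 over all tested genes, and 6 of 10 entries exceeded the 90th percentile. KO replicates 7 and 8 were the highest of the 6 libraries for 4 entries each, and WT replicate 1 was the lowest for 4.

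**Figure D5:**
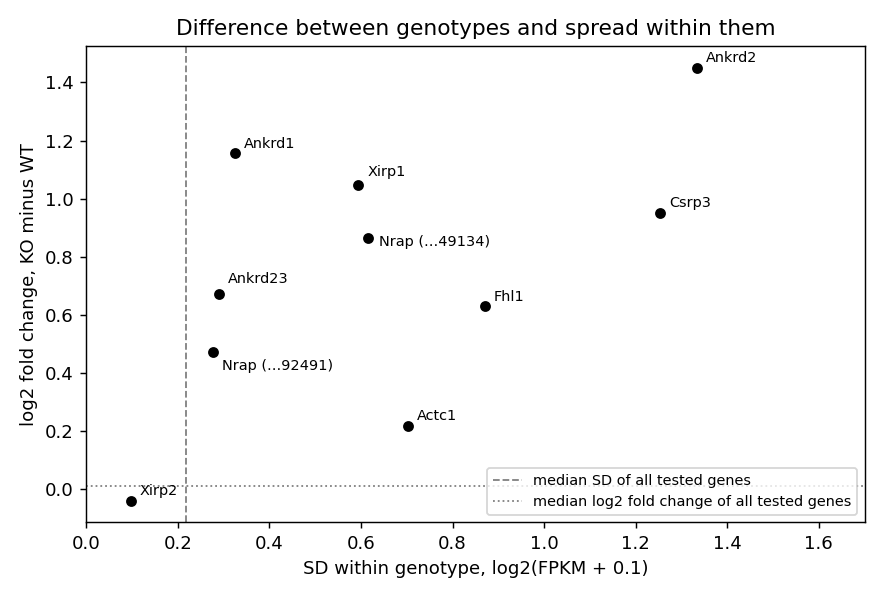
Log2 fold change (KO minus WT) of each entry against its pooled SD within genotypes on the log2(FPKM + 0.1) scale, with dashed and dotted lines at the medians of all tested genes, 0.22 and 0.01. *Ankrd2* and *Csrp3* combine high differences with SDs of 1.33 and 1.25, and *Xirp2* lies near 0 on both axes.

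Genes around the members were read from lists of their partners, relatives and regulators. Of 20 titin and Z-disc partners, 17 had positive log2 fold changes. At an unadjusted p under 0.05 in limma, 7 were higher and 0 lower, beside 15.3% and 10.9% of all tested genes. After adjustment 1 partner passed the test in limma. That gene was *Ttn*, titin itself, which was listed at 0 in the 3 WT libraries and at 151 to 190 FPKM in the KO. A listing of 0 for a gene that every muscle fibre uses may be a failed estimate, and no fold is given. The median log2 fold change of the list was 0.29. *Tcap*, the titin cap and partner of *Csrp3*, reached 1178, 760 and 935 FPKM in the WT against 1662, 1895 and 1996 FPKM in the KO (log2 fold change 0.97, limma adjusted p = 0.0667). *Flnc*, filamin C, which binds Xin, had a log2 fold change of 1.06 (limma adjusted p = 0.0673). Both were picked after their values were seen, and their GC contents of 61.3% and 58.4% are above the median of 50.1%. After GC correction their log2 fold changes were 0.31 and 0.51. *Smpx*, the small muscle protein encoded on the X chromosome, had the lowest log2 fold change, -0.23 (limma adjusted p = 0.297), and 0.05 after GC correction.

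Paralogs of the members formed another list. Of 10 tested paralogs, 9 had positive log2 fold changes, with a median over the list of 0.37, and 0 passed in limma. The negative one was *Fhl5* at -0.41 (limma adjusted p = 0.488), with means of 0.63 FPKM in the WT and 0.44 FPKM in the KO. At an unadjusted p under 0.05 in limma, 3 paralogs were higher and 0 lower, beside 15.3% and 10.9% of all tested genes. Beside *Fhl1*, *Fhl3* had a log2 fold change of 0.37 (limma adjusted p = 0.0911, and -0.24 after GC correction) and *Fhl2* one of 0.68 (limma adjusted p = 0.439, and 0.53 after GC correction). Beside *Csrp3*, the values were 0.37 for *Csrp1* and 0.76 for *Csrp2*, which is known from smooth muscle. After GC correction they were 0.06 and 0.50, and without KO replicate 7 they were 0.16 and 0.49. *Neb*, the giant thin filament ruler related to *Nrap*, was counted in the titin and Z-disc list. It had a log2 fold change of -0.10, which was 0.02 without KO replicate 7 and 0.01 after GC correction. Its relative *Nebl*, of the paralog list, was under the minimum.

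Regulators of tension-dependent transcription formed a further list. Of 21 tested entries (*Tead1* under 2 identifiers) for the YAP, TEAD and SRF pathways, 11 had positive and 10 negative log2 fold changes, and the median log2 fold change was 0.03. None passed in limma. At an unadjusted p under 0.05 in limma, 5 were higher and 1 lower, beside 15.3% and 10.9% of all tested genes. The highest was *Vgll2*, a TEAD cofactor of muscle, with a log2 fold change of 0.96 (limma adjusted p = 0.155), and the lowest was its relative *Vgll3* with -0.63 (limma adjusted p = 0.220). After GC correction these were 0.29 and -0.34. *Srf*, chosen after its values were seen, reached 6.61, 9.11 and 10.4 FPKM in the WT against 13.6, 12.4 and 14.3 FPKM in the KO. Its log2 fold change of 0.64 did not pass (limma adjusted p = 0.0950), and at 62.5% GC it was -0.03 after GC correction.

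Denervation is among the conditions known to raise muscle ankyrin repeat genes. The list of denervation genes held 10 entries, and those averaging under 0.5 FPKM were not tested. Of 7 tested entries, 4 had positive and 3 negative log2 fold changes, and 1 passed in limma. *Hdac4* stood under 2 identifiers and is counted once on each side, at 0.51 and -0.03. *Ncam1*, the neural cell adhesion molecule that spreads over denervated fibres, reached 1.12, 1.31 and 1.19 FPKM in the WT against 2.90, 3.46 and 3.84 FPKM in the KO. It was higher in 3 of 3 KO libraries, with a log2 fold change of 1.41 (SE 0.17, limma adjusted p = 0.02999). The call was lost when any 1 library other than WT replicate 8 was left out, with log2 fold changes of 1.32 to 1.52 and limma adjusted p-values of 0.0622 to 0.185. After GC correction it held (limma adjusted p = 0.0210). *Gadd45a*, a stress gene known to rise early after denervation, had a log2 fold change of -0.36 (limma adjusted p = 0.104), and of -0.85 after GC correction (limma adjusted p = 0.115). At an unadjusted p under 0.05, 1 entry of the list was higher and 1 lower, beside 15.3% and 10.9% of all tested genes.

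Fast fibre genes, the counterpart of the slow list, were read in the same way. Of 8 tested entries, 5 had positive and 3 negative log2 fold changes, with a median of 0.20, and 0 passed in limma. At an unadjusted p under 0.05 in limma, 1 was higher and 0 lower, beside 15.3% and 10.9% of all tested genes. *Myh2*, the fast oxidative myosin, had the highest value, 0.75 (limma adjusted p = 0.0932), and *Casq1*, the fast calsequestrin, the lowest, -0.17 (limma adjusted p = 0.571). *Atp2a1*, *Myh4* and *Tnnt3* were listed at 0 in all 6 libraries, although these are abundant transcripts of a mixed fast muscle, and such entries say nothing of the fibres.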

How the data were processed

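GAS muscle RNA of 3 Kvβ2 KO and 3 WT mice was sequenced from stranded mRNA libraries. Reads were aligned by the authors to GRCm38 using TopHat, with quantification by Cufflinks, and the deposited table gives FPKM per gene and library. Tool versions and the annotation release are not given in the sources used here. Counts were not used here. Depth was estimated from FPKM steps of single-transcript genes of 1500 to 6000 bases, where 90.8% to 96.0% of low values came out whole within 0.15 of a fragment, and 1 fragment on 1 kilobase was worth 0.0472 to 0.0671 FPKM.

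Genes that averaged 0.5 FPKM or more (12334 of 37979 entries) were tested with limma 3.58.1 (R 4.3.3, variance trend, two-sided) on log2(FPKM + 0.1), which understates the change of low genes. P-values were adjusted by Benjamini-Hochberg over all tested genes, and genes were called at an adjusted p under 0.05. GC content was corrected by a loess curve of span 0.3 on each library's deviation. Positions and GC content came from GENCODE vM21, and promoter windows from RefSeq on GRCm38.p6. Groups of 3 against 3 cannot give an exact permutation p under 0.1, so none is quoted. No 2 libraries shared more than 1 value among 14983 genes above 0 everywhere.

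The members and gene lists were chosen with earlier results of these data known, and no list was given a test of its own. Named are the members with some of their relatives and *Kcnab2*. From each pathway list the largest rise is named and, where there was one, the largest fall, at a mean of at least 1 FPKM. The slow fibre and paralog lists held no such fall. Further named are called list genes, list genes at 0 throughout, the 3 genes nearest in pattern, and genes stated as chosen after their values were seen. The test was run on simulated data with independent noise, spreads drawn around the median SD of the tested genes and no dependence on GC content. That check therefore does not cover the GC trend or the larger SDs of the members. The alternatives covered the pseudocount, filter, scaling, variance model, GC content, length, the replicate number and each library left out. The physiology and histology were not analysed here.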

Additional observations from a re-analysis of the deposited data

How the results depend on the processing

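The number of genes called, 40 in all, was 11 with a pseudocount of 1, 20 with no filter, 1 without genes listed at 0 in any library, 18 after quantile normalization, 19 with no variance trend, 3147 with array weights, 14 after GC correction and 17 after length correction. Leaving out libraries gave 15 to 126 genes, the highest without WT replicate 8 and at most 19 without any other single library. Calls were 31 higher and 9 lower, 11 and 7 after quantile normalization, 9 and 8 after length correction, and 6 and 8 after GC correction. Called members remained at 0 except for 2 with array weights (*Ankrd1* and *Ankrd23*) and 1 without KO replicate 1 (*Ankrd2*), so leaving out libraries gave 0 to 1. Genes of the lists called numbered 2 (*Ttn* and *Ncam1*) and were 1 with a pseudocount of 1 or no filter, 0 without genes listed at 0, 35 with array weights and 1 to 2 with libraries left out. The direction turned for *Xirp2* after quantile normalization (log2 fold change 0.000341), GC correction (0.26), the replicate block with GC correction (0.26) and without WT replicate 1 (range with libraries left out -0.15 to 0.000998). It turned for *Actc1* with array weights (-0.54) and with libraries left out (-0.17 to 0.57), and for *Fhl1* without KO replicate 8 and WT replicate 8 together (-0.03, range -0.0276 to 1.12), a setting added after the data were seen. Among other named genes it turned after GC correction, with or without the block, for *Smpx* (0.0471), *Fhl3* (-0.24), *Neb* (0.0112) and *Srf* (-0.0263), for *Neb* with libraries left out (-0.21 to 0.0245), and for *Tnnt2* with array weights (0.35) or libraries left out (-0.78 to 0.30). The call of *Ncam1* was also lost with a pseudocount of 1, with no filter, without genes listed at 0 and with the block, at adjusted p-values of 0.0514 to 0.202. The median log2 fold change of the members was 0.54 to 0.96 with a library left out and 0.61 after GC correction. Same-numbered libraries did not deviate together (r from -0.080 to 0.034), and only those numbered 8 correlated best with each other; with the replicate block 13 genes were called, 12 with GC correction added, and 1 list gene in each. At the depth of these libraries, *Kcnab2* and other genes near 0.1 FPKM rest on few fragments, and the causes of these dependences were not tested.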

Other observations

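Of 7 tested sarcomere genes of developing muscle, 4 had positive and 3 negative log2 fold changes, with a median log2 fold change of 0.31. None passed in limma, and 2 were higher and 0 lower at an unadjusted p under 0.05, beside 15.3% and 10.9% of all tested genes. The 2 higher genes were *Myh8* and *Myl4*, named after their values were seen. Their log2 fold changes were 1.15 and 0.95 (limma adjusted p = 0.105 and 0.0944), and *Myh6* was not among them. *Myh6*, the cardiac alpha myosin, reached 2.87, 1.76 and 1.17 FPKM in the WT against 1.65, 6.56 and 7.34 FPKM in the KO, with KO replicate 1 within the WT range (log2 fold change 1.21, limma adjusted p = 0.221). *Tnnt2*, the cardiac troponin T, had a log2 fold change of -0.23 (limma adjusted p = 0.837), which was 0.30 without KO replicate 1 and 0.27 without WT replicate 8.

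By Euclidean distance of mean-centred log2 values over the 6 libraries, the 3 genes nearest to the mean pattern of the members were *Wdr6*, a WD repeat protein, at a distance of 0.189, *Ppargc1b*, a coactivator of mitochondrial genes, at 0.270, and *Igsf8*, an immunoglobulin superfamily membrane protein, at 0.286. Their GC contents were 57.2%, 57.9% and 57.7%, above the median of the tested genes.

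Markers of other cell types gave 0 called genes in limma in each list. For the counts at an unadjusted p under 0.05, the shares over all tested genes were 15.3% higher and 10.9% lower. Tendon and fibroblast markers summed to 411 to 635 FPKM in the WT and 416 to 653 FPKM in the KO, with 1 higher and 0 lower at an unadjusted p under 0.05. Endothelial and smooth muscle markers summed to 46.2 to 49.2 and 48.4 to 66.6 FPKM, with 2 higher and 1 lower. Macrophage markers summed to 2.57 to 8.06 and 5.56 to 12.02 FPKM and Schwann cell markers to 27.4 to 102 and 31.3 to 131 FPKM, with 0 under that p in either direction. Of the 5 adipocyte markers, 4 were higher and 0 lower in the KO at an unadjusted p under 0.05. Their median log2 fold change was 2.11. The sum over these markers was 34.8, 7.35 and 18.9 FPKM in WT libraries 1, 7 and 8. In KO libraries 1, 7 and 8 it was 44.5, 168 and 44.3 FPKM, so KO replicate 7 stood far above the rest.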
